A study of Homo sapiens with 5 samples.

Results

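The 9 genes described here encode the cyclins and kinases that carry a cell from G1 into S phase: the D-type cyclins CCND1, CCND2 and CCND3, the E-type cyclins CCNE1 and CCNE2, the kinases CDK2, CDK4 and CDK6, and the phosphatase CDC25A. They were chosen by name as members of this pathway, at a time when earlier results of these data were known. Each was represented by 1 probe that names that gene alone, so all 9 were measured, of 18417 genes with such a probe. All 9 were above background on all 5 arrays, where background is the 95th percentile of 341 olfactory receptor genes on the same array, 5.98 to 6.19 on the log2 scale.

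RNA came, per the labels, from the human leukemia cell line RS4.11, described as grown from an acute leukemia in which the MLL gene is rearranged. Cultures on 2 arrays (control) had received the solvent DMSO, and cultures on 3 arrays had received the GSK-3 inhibitor SB216763 at 10 uM, both for 20 h. All arrays are of this single line, with no other genotype and no other dose or time. The labels do not say whether arrays of a group were separate cultures, and p-values therefore cover the spread among the 5 arrays alone, which may be technical. Differences are SB216763 minus control of log2 values, n = 2 control and n = 3 SB216763 arrays.

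D-type cyclins bind CDK4 or CDK6 when growth signals are present, and the complexes begin to phosphorylate the retinoblastoma protein, which frees E2F transcription factors. E2F then drives genes of the E-type cyclins, which activate CDK2 and complete that phosphorylation, while CDC25A removes the inhibitory phosphates from the kinases. GSK-3 is known in this pathway as a kinase that marks cyclin D1, cyclin E and CDC25A proteins for degradation. Transcripts were measured here, and protein was not. CDK6 is known as a gene that MLL fusion proteins bind and that MLL leukemia cells depend on.

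All 9 transcripts had a lower mean with SB216763, and 5 of them fell by limma's moderated test after Benjamini-Hochberg adjustment over all genes (adjusted p under 0.05), where 5.92% of all genes were called lower and 13.1% called in either direction. CDC25A, the E-type cyclins and CDK2 all fell, and the fitted difference was largest for CDC25A: CDC25A by 1.10, CCNE2 by 0.91, CDK2 by 0.63 and CCNE1 by 0.57 on the log2 scale. Of the 3 D-type cyclins and their 2 kinases CCND3 fell, by 0.42, while CCND1, CDK4 and CDK6 lay between -0.34 and -0.29 and CCND2 at -0.04. The median difference was -0.77 over the 4 genes on the cyclin E side and -0.34 over the 5 on the cyclin D side, a contrast that was not tested as such. CDC25A, which also acts on CDK4 complexes, was counted on the cyclin E side alone, and it had the largest fall. The groups did not overlap for 7 of the 9 genes, with SB216763 lower in each, against 19.9% of all genes. Leaving out control replicate 1 or control replicate 2 ended these calls by limma, and nearly all calls among all genes with them. With 1 control array left, the median difference of the 9 was -0.47 and -0.39.

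**Figure D1:**
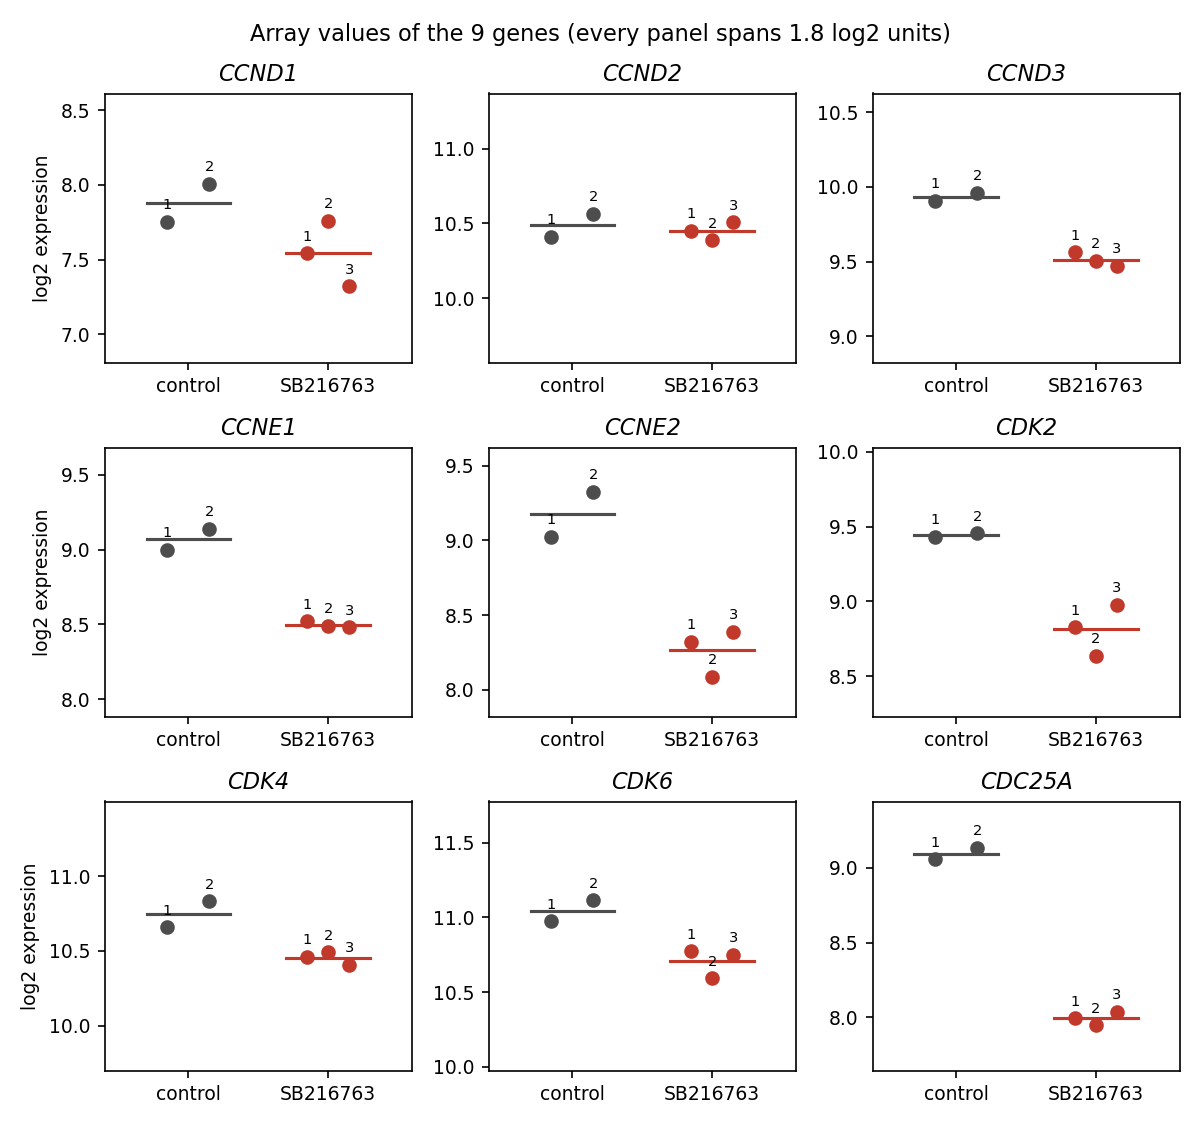
Log2 expression (y axis, the same span of log2 units in every panel) of each gene on the control arrays (grey) and the SB216763 arrays (red), with replicate numbers above the points and group means as lines. The groups do not overlap for 7 genes, and they overlap for CCND1 and CCND2.

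Several facts of the arrays stand beside these results. Array medians lay between 6.77 and 6.84. Of 8 measured genes of B cell precursors, CD79B, PAX5 and IGLL1 were above background on all arrays, whereas CD22, VPREB1, DNTT and RAG1 were above it on no array. MEIS1, FLT3, PBX3 and MEF2C, high in MLL leukemias, were above background on all arrays, and MEF2C was called lower, at -0.36 (adjusted p = 0.0239 by limma). Above background on all arrays were also all 6 measured myeloid genes, MPO, ELANE, CD14, CSF1R, LYZ and ITGAM. Their mean log2 level was 8.06 to 8.09 on the control arrays and 8.17 to 8.31 on the SB216763 arrays, LYZ being the 1 called member, higher by 0.78 (adjusted p = 0.00274 by limma). The other members went both ways: MPO -0.23, ELANE -0.05, CD14 -0.003, CSF1R 0.11 and ITGAM 0.27. MPO and CD14 lay close to background, with lowest values of 6.10 and 6.14. Of 5 T cell genes 4 were above background on no array, and of 3 erythroid genes 1 was above it on all. Whether the cells are the labelled line was not tested, nor was the part of the myeloid levels or of the MEF2C fall in the changes of the cyclin genes. A lower share of cycling cells and less transcript per cell cannot be told apart in such bulk RNA.

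CDC25A, the phosphatase that activates CDK2 and CDK4 complexes, was at 9.06 and 9.13 on the control arrays and at 7.99, 7.95 and 8.04 with SB216763. The groups were 1.02 apart at their nearest values, while the SDs within them were 0.05 (n = 2) and 0.05 (n = 3). The fall was 2.15-fold, a log2 difference of -1.10 (SE 0.08, 95% interval -1.28 to -0.92, adjusted p = 0.000533 by limma), which ranked 38th among the decreases of all 18417 genes and 35th by p. Of the 9 genes it alone was called by an ordinary linear model without moderation, where 251 of all 18417 genes were called. Its call was lost without control replicate 1 (adjusted p = 0.0572) and without control replicate 2 (adjusted p = 0.0557), with differences of -1.14 and -1.06.

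The sequence just before the CDC25A start site is shown because CDC25A had the largest difference of the 9 genes and E2F is known to act on G1/S promoters. It is the RefSeq sequence of assembly GRCh38.p14, minus strand, chr3:48188418-48188667, 250 bases written 5′ to 3′ up to the base before the annotated start, with a word of the E2F type in capitals.
CDC25A: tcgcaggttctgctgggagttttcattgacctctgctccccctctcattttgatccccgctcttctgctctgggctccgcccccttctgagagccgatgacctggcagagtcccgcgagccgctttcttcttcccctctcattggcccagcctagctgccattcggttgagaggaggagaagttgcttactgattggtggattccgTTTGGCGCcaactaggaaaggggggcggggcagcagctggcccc
The words searched were TTTCCCGC, TTTCGCGC, TTTGCCGC and TTTGGCGC on both strands, and CDC25A held TTTGGCGC, beginning at position -44 from the start. Of 35116 windows of this length before RefSeq starts, 2.79% held at least 1 of the 4 words. RefSeq windows were matched for 5 of the 9 genes (CCND3, CCNE1, CDK4, CDK6 and CDC25A, 8 windows), and none of the other 7 windows held a word. A match describes letters only, and it was not tested whether any factor binds there.

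CCNE2 and CCNE1 encode the E-type cyclins, the activating partners of CDK2. CCNE2 was at 9.02 and 9.32 on the control arrays and at 8.32, 8.09 and 8.39 with SB216763. It had the wider spread of the pair, with SDs of 0.21 (n = 2) and 0.16 (n = 3), but its groups stayed 0.64 apart. CCNE2 fell 1.88-fold, a log2 difference of -0.91 (SE 0.13, 95% interval -1.20 to -0.62, adjusted p = 0.00441 by limma). CCNE1 was at 8.997 and 9.14 on the control arrays and at 8.52, 8.49 and 8.48 with SB216763. The 3 SB216763 arrays had an SD of 0.02 and all lay below both controls. CCNE1 fell 1.48-fold, by 0.57 (SE 0.08, 95% interval -0.76 to -0.38, adjusted p = 0.00485 by limma).

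The log2 ratio of CCNE1 to CCNE2 within an array shows whether the E-type cyclins fell unequally. It was -0.03 and -0.19 on the control arrays and 0.20, 0.40 and 0.09 with SB216763, so every treated array lay above both controls. The difference of 0.34 did not pass an exact permutation test over the arrays (two-sided p = 0.2, adjusted over 4 ratios 0.267). With 2 arrays against 3 that test cannot give a p below 0.1.

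CDK2, the kinase that E-type cyclins activate, was at 9.43 and 9.46 on the control arrays and at 8.83, 8.64 and 8.98 with SB216763. The controls agreed closely, with an SD of 0.02 (n = 2), and the treated arrays spread more, with an SD of 0.17 (n = 3), all below the controls. CDK2 fell 1.55-fold, by 0.63 (SE 0.11, 95% interval -0.88 to -0.38, adjusted p = 0.00998 by limma). The calls of CCNE1, CCNE2 and CDK2 were lost without either control array, as nearly all calls among all genes were. They were also lost in the linear model without moderation, with adjusted p between 0.0628 and 0.136. That model called 251 of all 18417 genes.

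Among the D-type cyclins, CCND3, the form most tied to lymphoid precursors, was at 9.91 and 9.96 on the control arrays and at 9.56, 9.51 and 9.47 with SB216763. All treated arrays were below both controls, by at least 0.35. CCND3 fell 1.34-fold, by 0.42 (SE 0.08, 95% interval -0.60 to -0.24, adjusted p = 0.0126 by limma). Its call was lost without either control array, as nearly all calls among all genes were. Its adjusted p was 0.0519 by limma without SB216763 replicate 1 and 0.0606 in the linear model without moderation. The difference stayed between -0.46 and -0.38 in all 14 alternatives.

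CCND2, which growth factor and cytokine signals induce in blood cells, was at 10.41 and 10.57 on the control arrays and at 10.45, 10.39 and 10.51 with SB216763. Its groups overlapped. The difference was -0.04 (SE 0.09, adjusted p = 0.837 by limma), and its 95% interval, -0.24 to 0.16, covers changes of either sign. Without control replicate 2 the difference was 0.04.

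CCND1, the D-type cyclin best known from epithelial tumours and mantle cell lymphoma, was at 7.75 and 8.01 on the control arrays and at 7.54, 7.76 and 7.32 with SB216763. SB216763 replicate 2 lay just above control replicate 1, so the groups touched. The difference was -0.34 with the largest standard error of the 9 genes (0.14), an unadjusted p of 0.0424 and an adjusted p of 0.170 by limma. It passed with array weights alone among the 14 alternatives (adjusted p = 0.0395 by limma), and its adjusted p was 0.441 without moderation. In the fit with array weights SB216763 replicate 1 had a weight of 8.54, and the other arrays had weights of 0.31 to 0.76.

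The log2 ratio of CCND2 to CCND3 was 0.50 and 0.60 on the control arrays and 0.89, 0.88 and 1.03 with SB216763. The ratio was thus higher on every treated array, by 0.38 on average. The exact permutation test gave the smallest p that the design allows (two-sided p = 0.1, adjusted over the 4 ratios 0.267), so it does not pass 0.05. The difference in ratio ranged from 0.33 to 0.43 when any single array was left out.

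**Figure D2:**
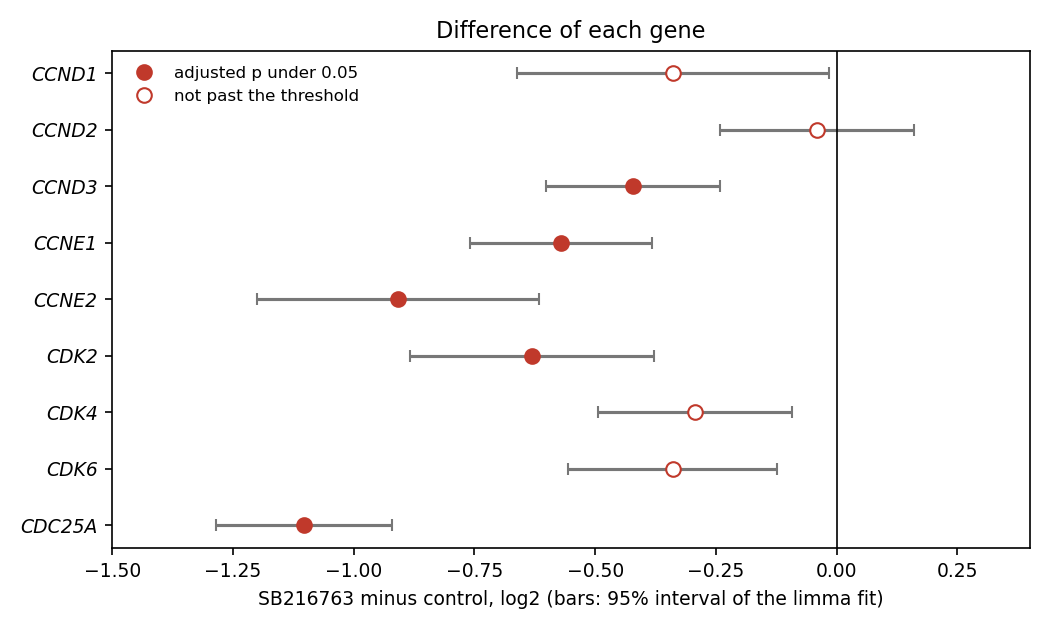
SB216763 minus control (x axis, log2) for each gene, with the 95% interval of the limma fit as bars; filled points have an adjusted p under 0.05. CDC25A, CCNE2, CDK2, CCNE1 and CCND3 are filled, and the interval of CCND2 alone includes 0.

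CDK4 and CDK6, the catalytic partners of the D-type cyclins, both lay just outside the threshold. CDK4 was at 10.66 and 10.83 on the control arrays and at 10.46, 10.49 and 10.41 with SB216763, with no overlap. Its difference was -0.29 (SE 0.09, 95% interval -0.49 to -0.09, adjusted p = 0.0660 by limma). CDK6 was at 10.97 and 11.12 on the control arrays and at 10.77, 10.59 and 10.75 with SB216763, also without overlap. Its difference was -0.34 (SE 0.09, 95% interval -0.56 to -0.12, adjusted p = 0.0522 by limma). Both passed in the same 5 of 14 alternatives (a filter on dim genes, quantile normalization, each array centred on its median, a variance trend with robust settings, and array weights), and over all 14 the adjusted p ran from 0.0186 to 0.261 for CDK4 and from 0.0156 to 0.261 for CDK6.

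No unequal change of the 2 kinases was resolved. The log2 ratio of CDK4 to CDK6 was -0.31 and -0.28 on the control arrays and -0.31, -0.10 and -0.34 with SB216763. The groups overlapped, and the difference of 0.05 had an exact permutation p of 0.9 (two-sided). The ratio of CDK2 to CDK4 was -1.23 and -1.38 on the control arrays and -1.63, -1.85 and -1.43 with SB216763, lower on each treated array, by 0.34 on average (exact permutation p = 0.2, two-sided). Adjusted over the 4 ratios these were 0.9 and 0.267, and such ratios show only unequal change, since levels of different probes are not comparable.

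The CDK4 window is shown because MYC, which binds the E-box word CACGTG, is a known regulator of CDK4, and MYC was the gene whose values lay nearest to those of CDC25A. It is RefSeq sequence of GRCh38.p14, minus strand, chr12:57752311-57752560, written 5′ to 3′ up to the base before the start, with CACGTG in capitals. This word is its own reverse complement, and the window holds none of the E2F words.
CDK4: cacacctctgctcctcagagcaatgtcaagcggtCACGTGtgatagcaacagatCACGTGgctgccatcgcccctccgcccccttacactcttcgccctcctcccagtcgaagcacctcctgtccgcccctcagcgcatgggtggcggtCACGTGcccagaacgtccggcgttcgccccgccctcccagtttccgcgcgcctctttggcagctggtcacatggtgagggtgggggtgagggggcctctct
It held CACGTG at positions -216, -196 and -101. At least 1 such word was found in 6.34% of the 35116 windows and 3 or more in 0.0797%. The cutoff of 3 is the number seen in CDK4 itself, so the second share describes this window and tests nothing. Windows were matched for 5 of the 9 genes, and the other 7 windows, CDC25A included, held none. No window of CCND1, CCND2, CCNE2 or CDK2 was searched. A match describes letters only, and it was not tested whether MYC binds there. Any part of MYC in the CDK4 values, which did not pass the threshold, was not tested either.

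The 3 genes nearest to each of CDC25A, CCNE2 and CDK2 were found among 12070 other genes above background on all arrays, by the root mean square distance between the 5 array values after centring each gene on its mean. Over so few arrays, nearness mostly reflects a like difference between the groups. Nearest to CDC25A were MYC at 0.029, EXO1, a DNA exonuclease of repair, at 0.032 and RHBDL3, a rhomboid family protein, at 0.037. MYC was at 10.75 and 10.86 on the control arrays and at 9.74, 9.72 and 9.80 with SB216763. Nearest to CCNE2 were PSMC3IP, a cofactor of recombinases, TLR2, a receptor of bacterial lipoproteins, and TCTN2, of the ciliary transition zone, at 0.036, 0.036 and 0.043. Nearest to CDK2 were MSH6, of mismatch repair, CEP76, of centrioles, and KLHDC2, a ubiquitin ligase adaptor, at 0.023, 0.028 and 0.029.

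Further genes of the cell cycle, and cyclins and kinases of transcription, were read from 7 lists with 82 measured genes. Of these 20 fell and 4 rose by limma, where 5.92% of all genes were called lower and 7.21% called higher. The 13 transcription cyclins and kinases, which lack the G1 role, held 2 of the rises. Leaving out control replicate 1 or control replicate 2 ended these calls by limma, and nearly all calls among all genes with them. The calls were 12 lower and 1 higher without SB216763 replicate 1, where 453 of all 18417 genes were called lower and 540 higher. They were 4 lower and 0 higher by a linear model without moderation, where 125 of all genes were called lower and 126 higher. In that model 23 were lower and 7 higher at p under 0.05 before adjustment, where 3922 of all 18417 genes had such a p. The higher calls also numbered 1 with the replicate number as a block (19 lower), with all probes tested singly (15 lower) and without SB216763 replicate 3 (18 lower). With the block 941 of all genes were called higher and 889 lower, and without SB216763 replicate 3, 808 and 798. Of 33297 probes tested singly, 1162 were called higher and 745 lower.

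**Figure D3:**
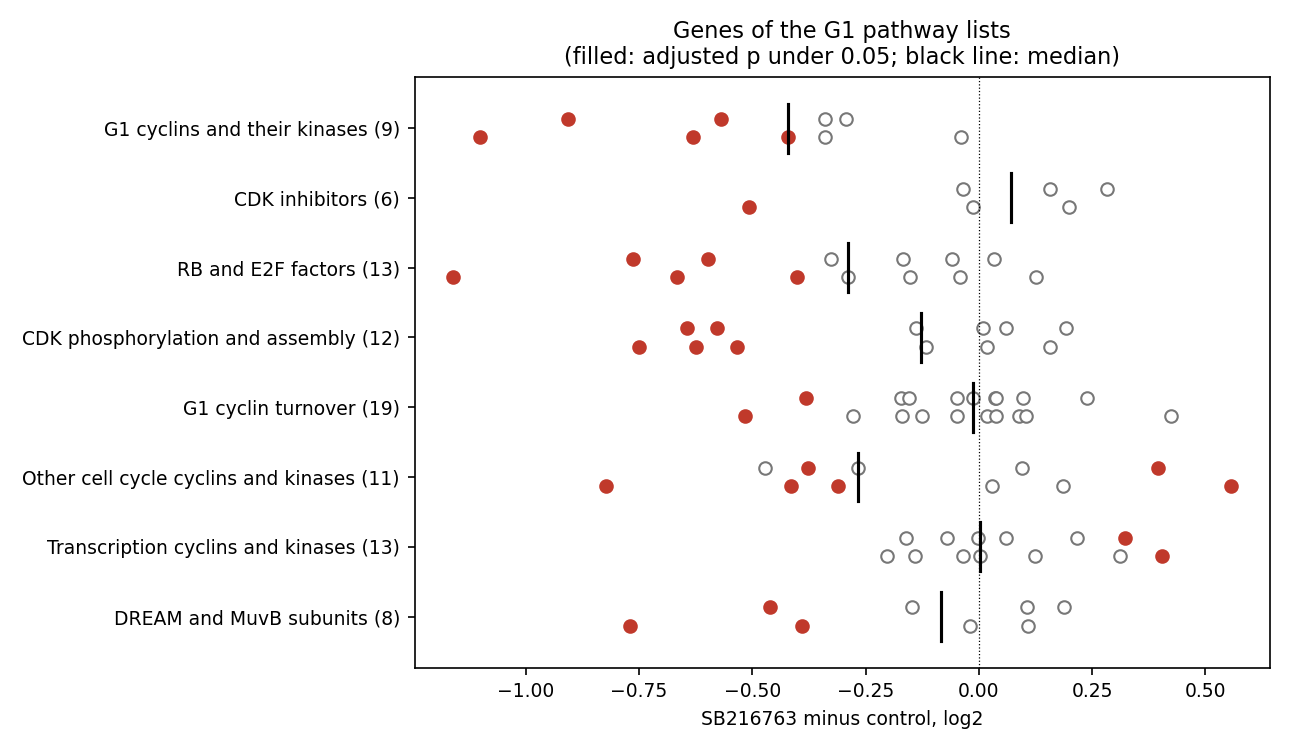
SB216763 minus control (x axis, log2) of every measured gene of the cyclin and kinase group and of the 7 other lists, with the number measured in brackets, the median as a black line and filled points for an adjusted p under 0.05. The cyclin and kinase group has the lowest median, -0.42, followed by the RB and E2F list at -0.29.

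Of 13 RB and E2F genes, which lie between the kinases and the S phase genes, 5 fell, 8 did not pass and 0 rose. Over all genes 5.92% were called lower and the median was 0.00, and the median of this list was -0.29. TFDP2 and TFDP1, the dimer partners of E2F, fell by 1.16 (SE 0.09) and 0.40 (SE 0.08). The repressive factors E2F8 and E2F7 fell by 0.76 (SE 0.09) and 0.60 (SE 0.08), and the activator E2F2 by 0.67 (SE 0.11). The 5 adjusted p-values by limma lay between 0.000588 and 0.0145. RB1 was at 0.13, RBL2 at 0.03 and RBL1 at -0.15, with adjusted p of 0.423, 0.859 and 0.462 by limma. E2F5 was above background on no array.

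Of 12 genes that phosphorylate, dephosphorylate or assemble CDK complexes, 5 fell, where 5.92% of all genes were called lower. The other 7 missed the threshold (median -0.13). CKS1B, which binds CDKs and the SKP2 ligase, fell by 0.75 (SE 0.08) at its brightest probe, and the mean of its probes gave -0.55. PKMYT1 and WEE1, the kinases that oppose CDC25 phosphatases, fell by 0.62 (SE 0.09) and 0.65 (SE 0.12). For WEE1 the mean of its probes gave -0.55. CDC25C, the mitotic relative of CDC25A, fell by 0.53 (SE 0.09). CABLES1, a CDK-binding adaptor, fell by 0.58 (SE 0.09). The 5 adjusted p-values by limma lay between 0.00158 and 0.0130. The remaining phosphatase of the family, CDC25B, was at 0.06 (SE 0.09), with an adjusted p of 0.740. CDK7, the kinase that activates other CDKs, was at 0.16 (SE 0.11), with an adjusted p of 0.453.

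Of 6 measured CDK inhibitor genes CDKN1B fell, by 0.51 (SE 0.10, adjusted p = 0.0148 by limma), where 5.92% of all genes were called lower. The other 5 missed the threshold (median 0.07). Without SB216763 replicate 1, 0 of the 6 were called, with CDKN1B lower and 1 gene higher at an unadjusted p under 0.05. In that setting 3743 of all 18417 genes had such a p, in either direction. CDKN1C was at 0.28, CDKN1A at 0.20 and CDKN2A at 0.16, with adjusted p of 0.120, 0.220 and 0.358. CDKN2C was not analysed here.

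Of 19 genes of G1 cyclin turnover 2 fell, where 5.92% of all genes were called lower, and 17 missed the threshold (median -0.01). SKP2, the ligase adaptor that recognises p27 and cyclin E, fell by 0.52 (SE 0.08, adjusted p = 0.00743 by limma). USP2, a deubiquitinase that acts on cyclin D1, was called at -0.38 (adjusted p = 0.0300) but was above background on only 1 of the 3 SB216763 arrays, and the count was 1 without SB216763 replicate 1. BTRC, an adaptor that recognises CDC25A, was at 0.43 (SE 0.12, adjusted p = 0.0627), and FBXO31, an adaptor for cyclin D1, at -0.28 (SE 0.08, adjusted p = 0.0674). FBXW7, the adaptor that recognises cyclin E, was at -0.15 (SE 0.12, adjusted p = 0.470).

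Of 11 other cell cycle cyclins and kinases, 4 fell and 2 rose, where 5.92% of all genes were called lower and 7.21% higher. The median of the 11 was -0.27. CCNA2, the S phase cyclin of CDK2, fell by 0.82 (SE 0.11, adjusted p = 0.00356 by limma) and CDK5, a kinase best known in neurons, by 0.31 (SE 0.08). CCNG1 and CCNG2, cyclins linked to p53 and to cell cycle arrest, rose by 0.56 (SE 0.09) and 0.40 (SE 0.09). Without SB216763 replicates 1, 2 and 3 in turn, 1, 2 and 2 of these genes fell and 1, 2 and 1 rose. With the replicate number as a block 3 fell and 1 rose, and with all probes tested singly 1 fell and 1 rose.

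Over all genes, 5.92% were called lower and 7.21% higher. Of 13 transcription cyclins and kinases, which share the fold but not the G1 role, 0 fell and 2 rose by limma, with a median of 0.00. At an unadjusted p under 0.05, 0 were lower, where 4880 of all 18417 genes passed in either direction. CCNL1 and CCNL2, cyclins tied to splicing, rose by 0.40 (SE 0.10) and 0.32 (SE 0.08), calls that were both lost without SB216763 replicate 1, without SB216763 replicate 3, with the replicate number as a block, without moderation, and with all probes tested singly, as well as without either control array. With each array centred on its median CCNL2 was lost (adjusted p = 0.0513 by limma). CDK19 was at 0.31 (adjusted p = 0.113) and CDK11B at -0.20 (adjusted p = 0.272), where CDK11B has a near-identical copy, CDK11A, and the signal of the pair cannot be assigned with certainty. Of 8 DREAM and MuvB genes, which repress cell cycle genes in G1 or activate them later, 3 fell, with a median of -0.08: MYBL2 by 0.77 (SE 0.08), FOXM1 by 0.46 (SE 0.08) and LIN9 by 0.39 (SE 0.09). LIN37 was at 0.19 (adjusted p = 0.192). The called falls of this list numbered 2 without SB216763 replicate 1.

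**Figure D4:**
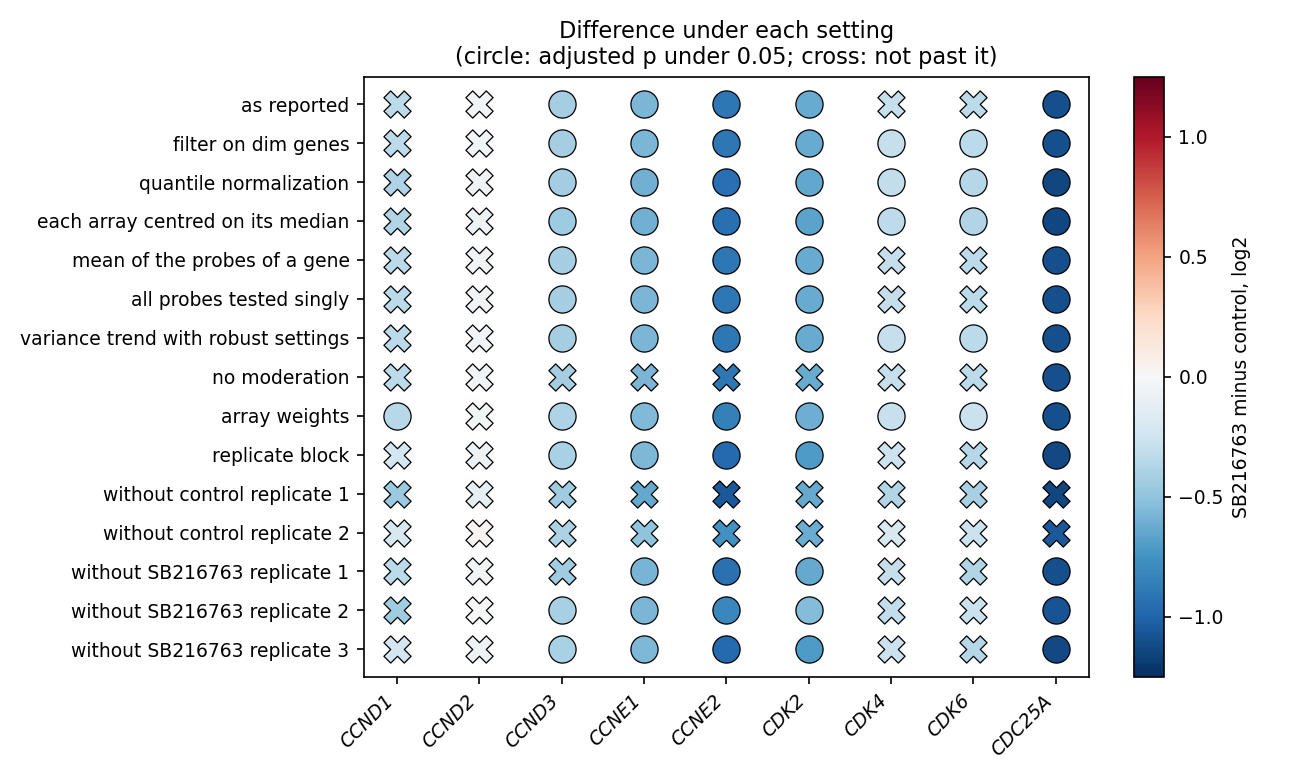
SB216763 minus control (colour, log2) of each gene under the reported setting and 14 alternatives; circles have an adjusted p under 0.05 and crosses do not. CDC25A is a circle in 12 of the 14 alternatives, CCNE1, CCNE2 and CDK2 in 11, CCND3 in 10, CDK4 and CDK6 in 5, CCND1 in 1 and CCND2 in 0.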

How the data were processed

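RNA of 5 samples was measured on Affymetrix whole-transcript arrays. The authors deposited 1 table of log2 expression values, made with Affymetrix Expression Console per the submitters' processing notes. Their range, 1.95 to 14.84, is that of log2 signals. The version, the summarisation method and the array's genome build were not given in the sources used here. No further normalization was applied.

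Gene names of probes came from the platform annotation (19460 of 33297 had 1 symbol); for genes with several probes the brightest was used, leaving 18417 genes. The symbols of all 9 members matched their Entrez identifiers in RefSeq (GRCh38.p14). Groups and replicate numbers came from sample titles. The groups were compared over all genes with limma 3.58.1 in R 4.3.3 (lmFit, eBayes; prior 4.62 degrees of freedom), two-sided, Benjamini-Hochberg threshold 0.05; standard errors and 95% intervals are moderated. Ratios were tested by exact permutation over the 10 assignments of arrays. The fit was tested on simulated data. Figures used matplotlib 3.10.9. The number of arrays limits precision.

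Members, lists and tests were chosen with earlier results of these data known. All 9 members were named, and from each list up to 4 genes with the smallest p, or all called where 5 or fewer. RB1, RBL1, RBL2, E2F5, CDC25B, CDK7 and FBXW7 were named after their values were seen.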

Additional observations from a re-analysis of the deposited data

How the results depend on the processing

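In 14 alternatives all 9 genes kept a negative difference, except CCND2, which was 0.037 without control replicate 2 and ran from -0.117 to 0.037 over the arrays left out. The number of the 9 genes called was 5 as reported, 1 without moderation, 8 with array weights, and 0 to 5 when 1 array was left out. For all genes 2418 were called, 251 without moderation, 4720 with array weights, and 0 to 2859 when 1 array was left out. Of the 82 pathway genes 24 were called, 4 without moderation, and 0 to 23 when 1 array was left out. The array weights were 8.54 for SB216763 replicate 1 and 0.31 to 0.76 for the other arrays. That fit therefore rested mostly on 1 treated array for its group, and the part of this in the differences was not tested. Leaving out arrays leaves fewer samples, and a lone control array is taken to vary as the treated ones do. The log2 ratio of CDK4 to CDK6 differed by -0.029 to 0.091 when 1 array was left out, being negative without SB216763 replicate 2. Whether the replicate numbers of the titles pair the arrays was not settled. Deviations of same-numbered arrays correlated at -0.05 and -0.10, but those of 2 controls mirror each other, so these values cannot decide it. With the replicate block 5 of the 9 genes, 20 pathway genes (19 lower, 1 higher) and 1830 genes in all were called. SB216763 replicate 3 has no partner in that block, so the differences equal those without SB216763 replicate 3 (CDC25A -1.12 in both), and the 2 settings are not separate checks.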
